A study of Mus musculus with 24 samples.

Results

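H3K27me3 was examined at 3914 stretches of the mouse genome that lie away from every annotated promoter and carry no H3K4me3, out of 17526 H3K27me3 regions on chromosomes 1 to 19. They were selected on the peak calls themselves. Overlapping peaks were joined within each of the 4 H3K27me3 lists, the lists were merged into union regions, and a region was kept when no transcript start of any kind lay within 5 kb of it and no H3K4me3 peak of any of the 4 H3K4me3 lists overlapped it. They are called distal H3K27me3 regions below. Another 5327 regions were as far from a start but overlapped an H3K4me3 peak, and 8285 lay within 5 kb of a start. The distal regions had a median width of 6368 bp and covered 30.7 Mb in all.

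The lists came from ChIP-seq, which sequences the DNA recovered with an antibody against a histone mark, in 4 populations of the supporting cell lineage of the fetal mouse gonad, sorted by flow cytometry from pooled gonads of C57BL/6 x CD1 embryos. XY progenitor and XX progenitor cells were taken at E10.5, before sex determination, and carried the SF1-eGFP reporter. XY Sertoli cells were taken at E13.5 and carried Sox9-CFP. XX cells at E13.5, called granulosa in the labels and pregranulosa here, carried TESM-CFP, a reporter transgene driven by a mutated form of the TESCO enhancer of Sox9. Apart from the reporters, neither the labels nor the methods name an engineered allele or a treatment in these cells. Each population was profiled for H3, H3K4me3 and H3K27me3, with 2 replicates of each, 24 samples in all. The replicates were pooled into 1 peak list for each mark and population, so that no spread between replicates can be had from them, no test compares populations, and every value below describes the lists as they stand. Intervals are exact (Clopper-Pearson) 95% intervals of a share and cover counting error only; neighbouring regions are not independent, so they are too narrow as a measure of biological error.

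H3K27me3 is laid down by Polycomb repressive complex 2 and is bound by the CBX subunits of Polycomb repressive complex 1, which compact chromatin and keep developmental genes silent. The mark is best known from CpG-rich promoters, where in undifferentiated cells it often coexists with H3K4me3, the mark of initiating promoters, in the state called bivalent. Away from promoters it forms broad domains over silent genes and intergenic stretches and also covers enhancers that are not in use. In the gonad, the supporting cells choose between a Sertoli fate, driven by Sry and Sox9, and a pregranulosa fate, driven by Wnt4, Rspo1 and Foxl2, and the losing pathway has to be kept silent.

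The base composition of these regions is shown by the 300 bases richest in CG dinucleotides from 4 of them, read from mm9 (the build of the lists) on the plus strand, with each CG in capitals. The first is from the widest distal region present in all 4 lists, outside protein-coding genes and with Prox1 as the nearest of them, at chr1:192287100-192287399. The second is from the widest region present only in the Sertoli list, over BC049352 and nearest to the start of Il10ra, at chr9:45039406-45039705. The third is from the widest region present only in the pregranulosa list, outside protein-coding genes and with Dusp10 as the nearest of them, at chr1:186089565-186089864. The fourth is from the distal region closest to Sox9 in the interval between Kcnj2 and Sox9, present only in the pregranulosa list, at chr11:112619894-112620193.
Prox1 region, all 4 lists: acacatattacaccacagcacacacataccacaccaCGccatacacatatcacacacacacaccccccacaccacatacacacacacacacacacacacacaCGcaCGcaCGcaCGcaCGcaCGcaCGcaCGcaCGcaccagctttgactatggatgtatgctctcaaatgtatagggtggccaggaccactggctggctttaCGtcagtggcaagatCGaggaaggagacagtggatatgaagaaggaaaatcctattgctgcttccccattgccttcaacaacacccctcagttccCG
Il10ra region, Sertoli list only: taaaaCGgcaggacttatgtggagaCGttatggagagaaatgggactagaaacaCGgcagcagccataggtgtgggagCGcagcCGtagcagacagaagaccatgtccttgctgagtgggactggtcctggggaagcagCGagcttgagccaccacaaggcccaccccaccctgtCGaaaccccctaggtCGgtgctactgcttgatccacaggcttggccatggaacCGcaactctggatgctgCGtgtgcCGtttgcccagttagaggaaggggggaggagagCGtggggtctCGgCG
Dusp10 region, pregranulosa list only: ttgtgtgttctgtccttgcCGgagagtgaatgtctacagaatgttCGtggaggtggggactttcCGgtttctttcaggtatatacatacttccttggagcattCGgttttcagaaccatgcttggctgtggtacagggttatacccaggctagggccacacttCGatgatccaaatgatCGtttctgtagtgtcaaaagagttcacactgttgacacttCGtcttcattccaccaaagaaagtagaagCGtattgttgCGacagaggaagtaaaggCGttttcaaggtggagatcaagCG
Sox9 region, pregranulosa list only: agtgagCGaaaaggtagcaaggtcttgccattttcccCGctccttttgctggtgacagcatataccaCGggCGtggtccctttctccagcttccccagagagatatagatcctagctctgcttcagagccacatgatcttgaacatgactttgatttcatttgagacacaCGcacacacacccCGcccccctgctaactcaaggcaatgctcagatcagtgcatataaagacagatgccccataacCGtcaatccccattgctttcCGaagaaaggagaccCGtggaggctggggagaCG
These windows held 13, 14, 11 and 10 CG dinucleotides, and most of those in the Prox1 window stood in a run of alternating CG and CA. Over all distal regions the richest 300 bases held a median of 9 CG (quartiles 7 to 11). The median was 10 for regions present only in the Sertoli list, 8 for those present only in the pregranulosa list and 11 for those present in all 4.

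The lists differed in depth and length. According to their headers the H3K27me3 lists rested on 6470151 tags in XY progenitors, 33185400 in XX progenitors and 44446456 in Sertoli cells, and a window needed at least 14, 55 and 89 tags respectively, which was 2.74, 1.61 and 1.42 times the tags expected by chance in a window. The depth of the pregranulosa list is unknown because it has no header. After joining, the lists held 9534, 7805, 13105 and 10939 regions in the order XY progenitor, XX progenitor, Sertoli and pregranulosa. Before joining they held 36040, 38307, 73344 and 10939 peaks, so the pregranulosa peaks did not overlap, unlike those of the other lists. The rule that gave the pregranulosa widths is unknown, so they may not compare with those of the other lists. H3K27me3 covered a transcript start of 4 of 5 Sertoli cell markers (Sox9, Dhh, Dmrt1 and Fgf9) in the pregranulosa list and of 0 of 5 in the Sertoli list. It covered all 6 pregranulosa markers in the Sertoli list and 2 of 6 (Foxl2 and Lef1) in the pregranulosa list. Both progenitor lists covered 4 of 5 and 6 of 6. The paper reports that Foxl2 and Lef1 lose the mark at their starts in pregranulosa cells, Foxl2 inside a locus dense in it. The calls here rest on broad peaks, which need not resolve a single start. Of 5 markers of gonadal somatic cells all carried H3K4me3 in every list, and H3K27me3 covered all 5 in the progenitor lists, Lhx9 in the Sertoli list and 0 in the pregranulosa list. Of the 4 germ cell markers tested, Dazl carried H3K4me3 in all 4 lists and Pou5f1 in the Sertoli list, and of the 4 endothelial markers Kdr did so in all 4 lists and Cdh5 in the pregranulosa list, while both blood markers tested carried neither mark in any list. How much other cells contributed to the distal regions was not tested.

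Most distal H3K27me3 regions were found in 1 population. Of the 3914, 3064 (78.3%, interval 77.0 to 79.6) were present in 1 list, against 45.2% of all 17526 H3K27me3 regions. A total of 142 (3.63%, 3.06 to 4.26) were present in all 4 lists, against 27.7% of all regions. Among the distal regions that did carry H3K4me3, 18.3% were in all 4 lists, and among those within 5 kb of a start 45.1% were. The rule excluded regions for H3K4me3 in any list and a region that is wide or shared has more chances to meet a peak or a start, so these shares describe the selected set.

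The Sertoli list contributed the largest number and the XX progenitor list the smallest. Present in the Sertoli list were 2285 distal regions (58.4%, against 71.3% of all regions), in the pregranulosa list 1595 (40.8%, against 57.8%), in the XY progenitor list 993 (25.4%, against 49.2%) and in the XX progenitor list 330 (8.43%, against 40.8%). Regions found in a single list numbered 1566 for Sertoli cells (40%, against 24.5% of all regions), 959 for pregranulosa cells (24.5%, against 12.8%), 512 for XY progenitors (13.1%, against 6.71%) and 27 for XX progenitors (0.690%, against 1.28%). XX progenitors were thus the one population whose private regions made up a smaller share of the distal set than of the whole. The XY progenitor list, from the fewest tags, had 85.0% of its private regions in a single window of 5001 bp, against 43.7% for Sertoli cells, 37.4% for pregranulosa cells and 66.7% for XX progenitors. Whether depth set these counts was not tested.

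**Figure D1:**
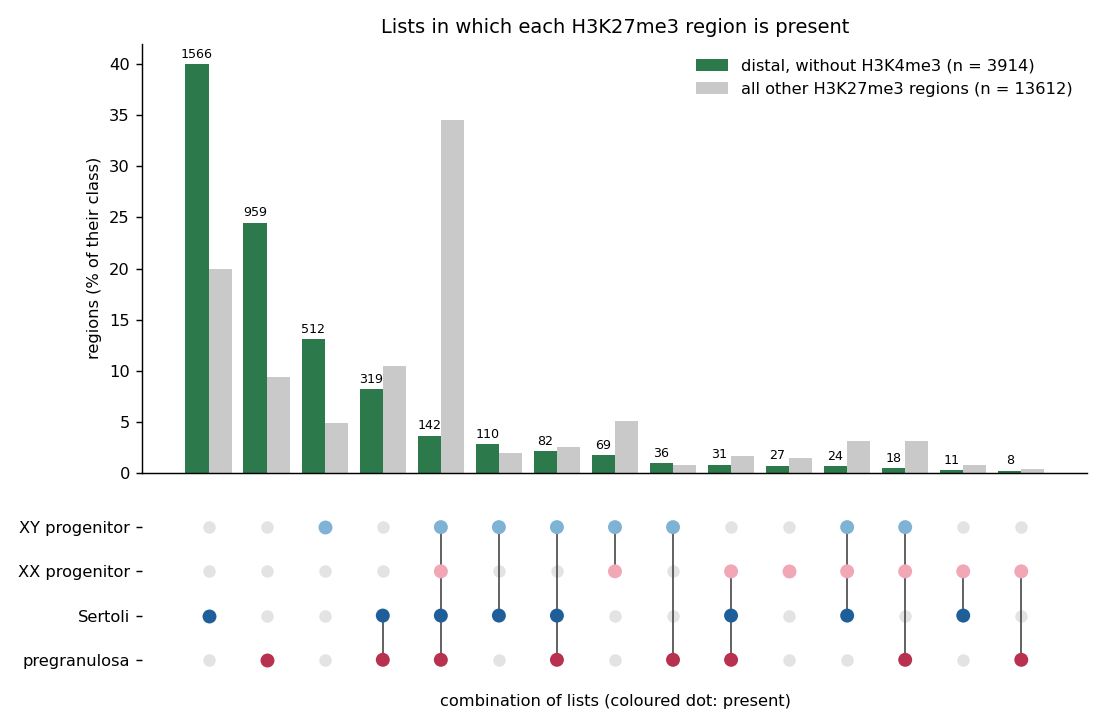
Share (%) of the 3914 distal H3K27me3 regions without H3K4me3 (green, with their number above) and of all other H3K27me3 regions (grey) present in each combination of the 4 lists, which the coloured dots below mark. The 3 tallest green bars are regions of a single list (1566, 959 and 512), whereas the tallest grey bar is the combination of all 4 lists (34.6%).

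Between the sexes at E13.5, 1711 distal regions (43.7%, 42.2 to 45.3) were in the Sertoli list and not in the pregranulosa list, against 29.8% of all regions, and 1021 (26.1%, 24.7 to 27.5) were in the pregranulosa list and not in the Sertoli list, against 16.4%. The excess on the Sertoli side was not seen with lists of equal length. With every list reduced to its widest 7805 regions, the number in the shortest list, the 2 shares were 30.3% and 31.0%. Both lists held 574 of the distal regions, 25.1% of those in the Sertoli list and 36.0% of those in the pregranulosa list. For regions within 5 kb of a start the same overlap was 71.9% and 84.0%, and for distal regions with H3K4me3 it was 55.0% and 68.4%. Where both lists had a distal region, the pregranulosa stretch was the wider in 229 and the Sertoli stretch in 319 of 574.

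At E10.5, XY and XX progenitors shared 253 distal regions, which made up 25.5% of the XY progenitor regions and 76.7% of the XX progenitor regions. Near starts the corresponding shares were 86.1% and 93.1%. In the 253 shared regions the widths differed little, with a median ratio of XX to XY stretch of 1.0 (quartiles 0.864 to 1.19).

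Distal H3K27me3 was mostly seen after sex determination. A total of 2844 regions (72.7%, 71.2 to 74.1) were present at E13.5 and in neither E10.5 list, against 47.1% of all regions, and 608 (15.5%, 14.4 to 16.7) were present at E10.5 and in neither E13.5 list, against 12.3%. Within the XY lineage, 358 regions were in both the XY progenitor and the Sertoli list, 36.1% of the former and 15.7% of the latter. Within the XX lineage, 199 regions were in both the XX progenitor and the pregranulosa list, 60.3% and 12.5%. The XX progenitor regions were present in the Sertoli list in 208 cases (63.0%, 57.6 to 68.3), a share that overlapped the one in the pregranulosa list (54.8 to 65.6). The shared regions tended to be wider at the later stage, with the Sertoli stretch the wider in 256 of 358 (median ratio 1.29, quartiles 1.0 to 1.8) and the pregranulosa stretch in 143 of 199 (1.26, 1.0 to 1.54). Stage cannot be told apart from the reporter used to sort the cells or from depth, which differed in the XY lineage and is unknown for the pregranulosa list. How the pregranulosa peaks were delimited is unknown too.

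The 142 regions present in all 4 lists were wide, with a median of 11878 bp. In 140 of them some bases were covered in every list, by a median of 5001 bp or 45.9% of the region. The widest, chr1:192257809-192297985, lay outside protein-coding genes, 9.05 kb from the nearest start of any kind and 263 kb from that of Prox1, a homeobox gene of lymphatic endothelium and neural progenitors. It was covered over 5001 bp in XY progenitors, 7970 bp in XX progenitors, 37013 bp in Sertoli cells and 37963 bp in pregranulosa cells. The second, chr4:147582452-147616281, lay over Ptchd2, which encodes a dispatched-like membrane protein, and took in 4771 bp of its exons; its covered lengths in the same order were 16238, 13467, 33341 and 23977 bp. The third, chr1:195846905-195879764, also lay outside them, 566 kb from Plxna2, a semaphorin receptor gene, and was covered over 22369, 21899, 21121 and 32860 bp. The first 2 were thus wider in both E13.5 lists than in both E10.5 lists, and the third was wider in the pregranulosa list alone.

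Regions of both progenitor lists and no E13.5 list numbered 69 (1.76%, against 5.08% of the other H3K27me3 regions). The widest was chr2:7075410-7103077, 73.1 kb from Celf2, a gene for an RNA-binding protein of splicing, with 26060 bp in XY and 21952 bp in XX progenitors. Distances to a gene are to its nearest annotated start here and to its outermost 5' end for the pathway genes further on. The second, 65.8 kb from BC088983 on chromosome 8, had 19751 and 18626 bp. The third lay 263 kb from Ppargc1a, a coactivator of mitochondrial biogenesis, with 17116 and 22025 bp. All 3 lay outside protein-coding genes and had a GC content of 40.8%, 38.1% and 39.6%.

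Regions of both E13.5 lists and no progenitor list numbered 319 (8.15%, against 10.4% of the other H3K27me3 regions). The widest, chr12:30404544-30446708, lay inside Myt1l, a transcription factor gene of neurons, and was covered throughout its 42165 bp in pregranulosa cells and over 10745 bp in Sertoli cells. A region of 35966 bp on chromosome 17, 415 kb from Nox3, was likewise covered throughout in pregranulosa cells and over 7513 bp in Sertoli cells. A region over Tnfsf8, the CD30 ligand gene, had 32494 bp in pregranulosa and 21791 bp in Sertoli cells. In each of the 3 widest the pregranulosa stretch was therefore the longer, as delimited in a list whose width rule is unknown.

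A smaller number of regions were present in 1 sex at both stages. In XY progenitors and Sertoli cells alone there were 110 (2.81%, against 1.96% of the other H3K27me3 regions), the widest of which was chr7:150366173-150387566 inside Kcnq1, a potassium channel gene in an imprinted cluster, with 9382 bp in XY progenitors and 21394 bp in Sertoli cells. The next were a region 59.4 kb from Il20rb, a cytokine receptor gene, with 5001 and 20548 bp, and a region over Dnahc1, an axonemal dynein gene, with 5001 and 18590 bp. In XX progenitors and pregranulosa cells alone there were 8 (0.204%, against 0.367%). The widest of these was a region 155 kb from Vegfc, a growth factor gene of lymphatic vessels, with 9307 bp in XX progenitors and 20282 bp in pregranulosa cells, followed by a region inside Opcml, a neural cell adhesion gene, with 6267 and 11058 bp, and a region 114 kb from Raet1d with 5001 and 10149 bp. All 6 were wider at E13.5 than at E10.5.

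Of the regions present only in the Sertoli list, the widest was chr9:45034085-45060935 (26851 bp) over BC049352, with its nearest protein-coding start 16.3 kb away at Il10ra, an interleukin receptor gene. The second, of 24037 bp, lay 284 kb from Maf, a bZIP transcription factor gene, and the third, of 21377 bp, 39.3 kb from St8sia2, which encodes a polysialyltransferase. Regions present only in the pregranulosa list, whose width rule is unknown, reached greater widths. The widest, chr1:186087026-186135895 (48870 bp), lay 229 kb from Dusp10, a MAP kinase phosphatase gene, and the next, chr10:22698309-22746337 (48029 bp), 158 kb from Tcf21, a transcription factor gene of gonadal and kidney mesenchyme. The third (39983 bp) lay 1029 kb from the nearest protein-coding start, that of 1700019M22Rik. Regions present only in XY progenitors were smaller, at most 13721 bp, 463 kb from Gpam; the second, of 11828 bp, lay 135 kb from Cyp26b1, which degrades retinoic acid in the fetal testis, and the third, of 11319 bp, 17.7 kb from Ddx18. The 27 regions of XX progenitors alone reached 9005 bp, 208 kb from Gm17434, and the next were 23.9 kb from D19Ertd386e (7534 bp) and 40.8 kb from the guidance gene Slit2 (6829 bp).

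The regions private to Sertoli cells were richer in G and C than those private to pregranulosa cells. Their median GC content was 47.3% (quartiles 45.5 to 49.2) against 42.6% (40.1 to 44.8), with 43.5% for XY progenitors alone, 42.0% for the 27 of XX progenitors alone and 46.8% for the 142 of all 4 lists. As a baseline, 299865 windows of 5001 bp that met the same rule and had no H3K27me3 had a median of 40%. Of the Sertoli-only regions 1555 of 1566 (99.3%, 98.7 to 99.6) lay above that median, and of the pregranulosa-only regions 730 of 959 (76.1%, 73.3 to 78.8). The order of the medians was the same with lists of equal length, 47.6% against 42.2%. It also held at each distance from a start. At 5 to 20 kb the medians were 47.5% (n = 656) and 43.4% (n = 188) against 41.5% in the windows, and beyond 100 kb they were 46.7% (n = 190) and 41.4% (n = 304) against 38.6%. The observed over expected frequency of CG, 0.201 in Sertoli-only and 0.164 in pregranulosa-only regions, was below the 0.6 commonly asked of CpG islands in both. The lists were called at different depths, and the part of depth in these differences was not tested.

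CpG island-like windows, defined as 200 bp with over 50% GC and an observed over expected CG of over 0.6, were present in 1106 distal regions (28.3%). They were present in 56.5% of distal regions with H3K4me3, 80.5% of regions near starts and 11.5% of the windows without H3K27me3. The share was 47.9% in regions of all 4 lists, which are wider, 32.2% in Sertoli-only, 17.2% in pregranulosa-only and 17.8% in XY progenitor-only regions. Median widths were 6368 bp in distal regions, 8929 bp in distal regions with H3K4me3, 10214 bp near starts and 5001 bp in the unmarked windows. A wider stretch has more room for an island-like window, and the part of width in these shares was not tested.

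Pregranulosa-only regions also lay farther from transcript starts than Sertoli-only regions. Their median distance to the nearest transcript start was 57.0 kb (quartiles 26.1 to 128), close to the 50.4 kb of the windows without H3K27me3, while Sertoli-only regions had a median of 25.6 kb (12.7 to 57.4) and all distal regions 33.6 kb (14.8 to 80.6). Within 20 kb of a start were 41.9% (39.4 to 44.4) of Sertoli-only and 19.6% (17.1 to 22.3) of pregranulosa-only regions, and beyond 200 kb were 2.55% (1.83 to 3.46) and 12.6% (10.6 to 14.9). The most remote region of all, chr3:42748049-42754325, lay 975166 bp from any start and was present in both progenitor lists and the pregranulosa list. At the other end, the regions just inside the limit were 5006, 5016 and 5036 bp from a start, near Aloxe3, Nphp4 and Armc5, and those just outside it 4997, 4968 and 4968 bp, near Gipc1, 6430573F11Rik and B130024G19Rik.

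**Figure D2:**
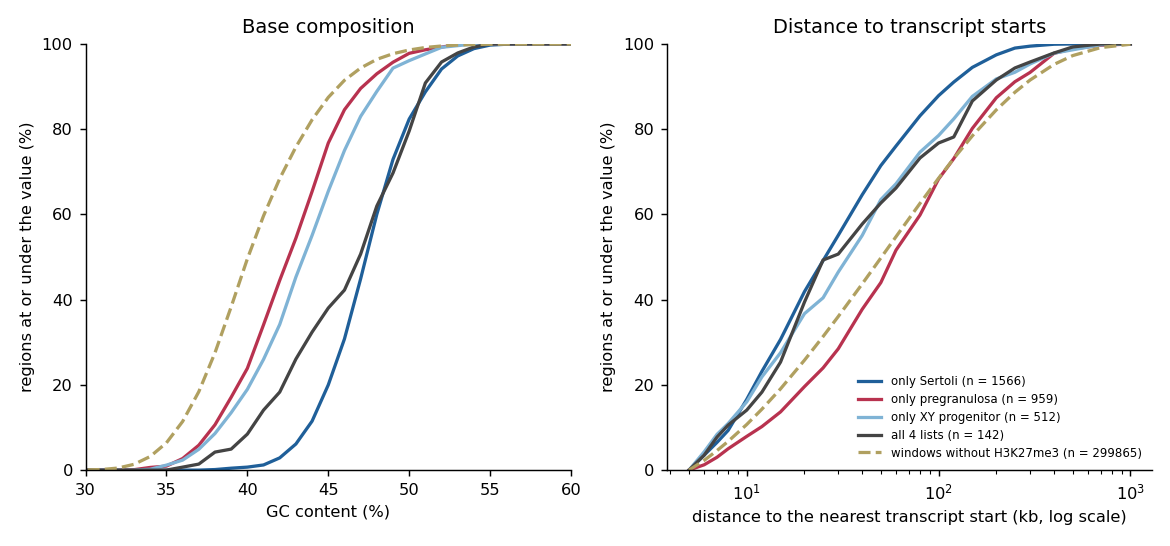
Cumulative share (%) of distal regions present in a single list or in all 4 lists, and of the 299865 windows without H3K27me3 (dashed), by GC content in % (left) and by distance to the nearest transcript start in kb on a log scale (right). Sertoli-only regions have the highest median GC content (47.3%) and pregranulosa-only regions the longest median distance (57.0 kb) of the classes drawn.

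Sertoli-only regions sat closer to other H3K27me3. The median gap from a distal region to the next H3K27me3 region of any list was 9.26 kb, and it was 7.26 kb for Sertoli-only, 17.0 kb for pregranulosa-only, 18.7 kb for XY progenitor-only and 4.26 kb for regions of all 4 lists. More than 100 kb from any other region lay 22.6% (20 to 25.4) of pregranulosa-only regions, 18.2% (14.9 to 21.8) of XY progenitor-only and 3.32% (2.49 to 4.33) of Sertoli-only regions. The Sertoli list held the most regions, so its private regions had more neighbours from their own list. The part of list length and depth in these gaps and in the distances to starts was not tested. The number of distal regions per Mb of sequence that met the rule ranged from 1.51 on chromosome 3 to 4.03 on chromosome 11, and these chromosomes had median window GC contents of 39.4% and 41.6%.

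Fewer than 1 in 3 distal regions overlapped a protein-coding gene, a share below that of unmarked sequence. Of the 3914, 1176 (30.0%, 28.6 to 31.5) overlapped a protein-coding gene body, against 33.9% of the windows without H3K27me3, and 489 (12.5%) took in part of a protein-coding exon, against 12.4%. Wholly inside a protein-coding gene were 1075. Of the 1063 inside exactly 1 gene, 679 (63.9%) were purely intronic, and 26.6%, 41.1% and 32.3% were centred in the first, middle and last of 3 equal parts of the gene. The rule keeps regions off every transcript start, which leaves less room in the first part. The share in protein-coding genes was much the same among the single-list classes, 30.6% for Sertoli-only, 28.8% for pregranulosa-only and 31.2% for XY progenitor-only regions.

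A total of 791 of 21418 protein-coding genes (3.69%) hosted at least 1 distal region, 131 of them 2 and 84 of them 3 or more. The hosts were long, with a median extent of 124 kb against 15.5 kb for all protein-coding genes. By bases and by number the first were Gm20388 and Fgfr2, with 17 and 14 regions and 125 and 108 kb of distal H3K27me3, but the annotated extents of these models are 4435 and 3009 kb and run across many other genes. In Fgfr2, a receptor gene of FGF signalling, 11 of the 14 regions were present in Sertoli cells and 3 in pregranulosa cells, and each of the 14 lay nearer to the start of another gene, such as Chst15 or Cpxm2.

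Several of the other hosts carried distal H3K27me3 mainly in 1 of the E13.5 populations. Myo18b, which encodes an unconventional myosin of striated muscle, held 7 regions over 68.1 kb (32.8% of its extent), all 7 present in Sertoli cells and 1 in pregranulosa cells. Camta1, which encodes a calmodulin-binding transcription activator of neurons, held 8, all in Sertoli cells and 4 also in pregranulosa cells. All 6 regions of Gabbr2, which encodes a subunit of the GABA-B receptor, were in Sertoli cells and 2 in pregranulosa cells. In Gm20388 the counts were 17 and 1. The reverse held in Opcml, where all 8 regions were in pregranulosa cells and 0 in Sertoli cells, and in 1700112E06Rik, with 9 in pregranulosa and 2 in Sertoli cells. Myo16, a second unconventional myosin gene, had 6 of 8 regions in pregranulosa and 3 in Sertoli cells, Col25a1, a transmembrane collagen gene, had 4 of 4 and 1, and Myt1l had 4 of 4 and 2. Grid1, a delta glutamate receptor gene, had 4 of 6 in pregranulosa cells and 1 in Sertoli cells, and Arfip1 had 4 of 6 and 2. In these genes the XX progenitor list held 0 or 1 distal region and the XY progenitor list between 0 and 2. These genes were selected for their number of regions or bases, and the 10 highest by each measure are given with no test. The counts leave out other H3K27me3 inside these genes, near a start or with H3K4me3. In Myo16 and Camta1 such other regions lay in both E13.5 lists, so the counts do not describe all H3K27me3 of a gene.

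**Figure D3:**
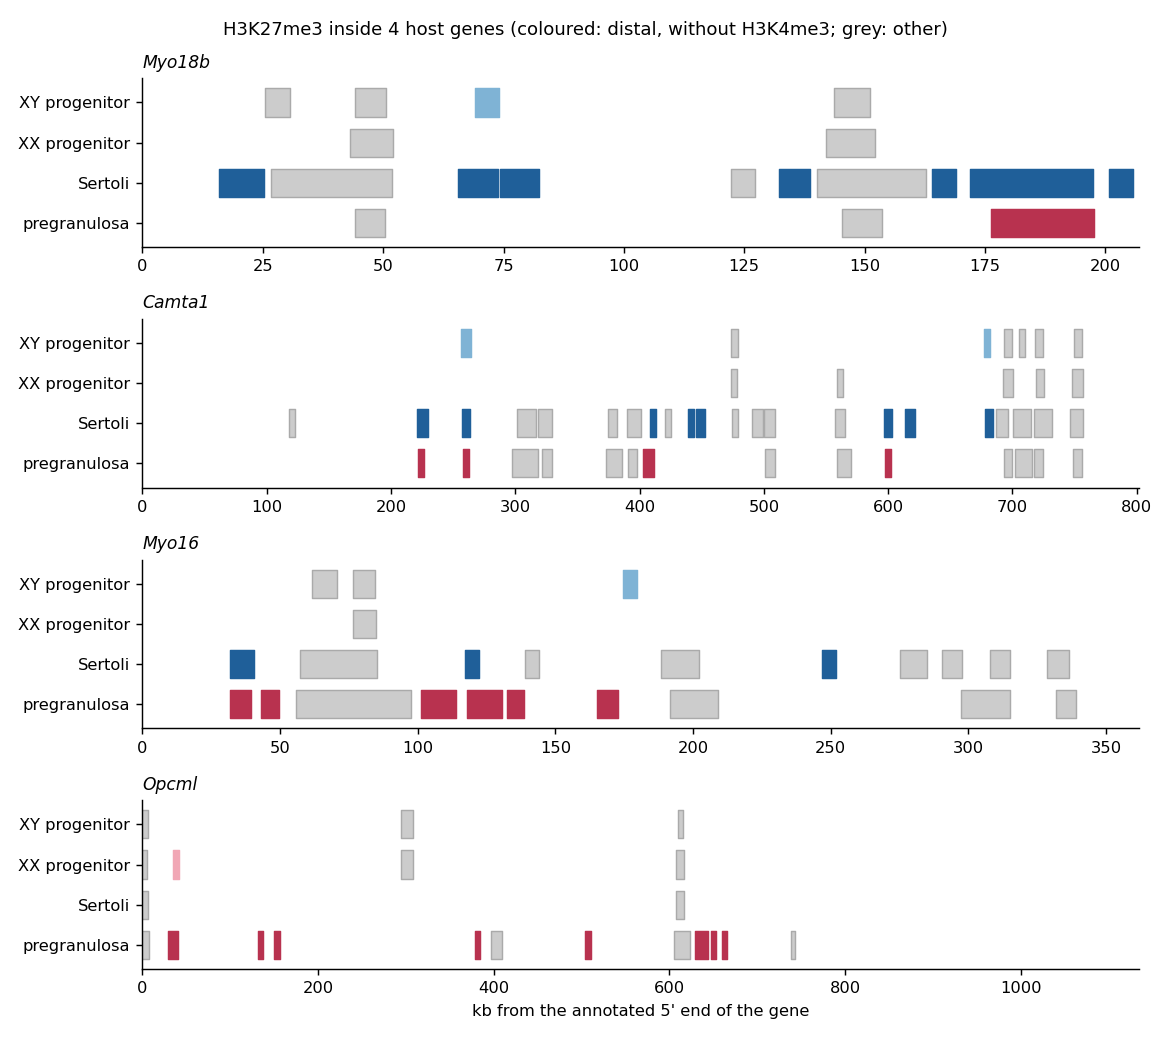
H3K27me3 in each list along Myo18b, Camta1, Myo16 and Opcml, in kb from the annotated 5' end; coloured bars belong to distal regions without H3K4me3 and grey bars to other H3K27me3 regions. The coloured bars of Myo18b and Camta1 are mostly in the Sertoli row (7 and 8 regions) and those of Opcml mostly in the pregranulosa row (8 regions); the 4 genes were picked from the highest ones after their values were seen.

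Among families of long genes, several for channels, receptors and extracellular matrix held distal regions in a larger share of their members than protein-coding genes at large. At least 1 distal region lay in the body of 6 of 13 voltage-gated calcium channel genes (46.2%), 10 of 29 glutamate receptor genes (34.5%), 6 of 18 genes listed under ephrin receptors (33.3%), 19 of 91 potassium channel genes (20.9%) and 10 of 45 collagen genes (22.2%), against 3.71% of protein-coding genes. The 18 may take in genes that are not ephrin receptors, so their values may not describe that family alone. Long genes have more room, and per Mb of gene body the distal H3K27me3 amounted to 37.3 kb in calcium channel, 17.0 kb in glutamate receptor, 24.9 kb in the listed ephrin receptor, 19.1 kb in potassium channel and 30.8 kb in collagen genes, against 9.04 kb over all protein-coding genes. Contactin genes, also long and neuronal, had 2.95 kb. The listed GABA receptor genes, of which 1 of 14 held a region, had 6.29 kb. That list left out Gabbr2, which alone held 60.2 kb in an extent of 330 kb, so its low value does not cover all GABA receptor genes. Among the transcription factor lists, 2 of 10 genes listed under Pax (80 kb per Mb of body) hosted a region. So did 2 of 14 genes listed under Tbx (32.4 kb), Tbx15 (8463 bp) and Tbxas1 (10002 bp). Tbxas1 encodes an enzyme and is not a T-box gene, so the Tbx values do not describe that family. Hosts were fewer among Fox genes (1 of 42, 3.39 kb) and Sox genes (1 of 17, 3.86 kb). Of zinc finger genes of the Zfp series, 6 of 361 (7.82 kb) were hosts. Of the homeobox genes, 0 of 34 of the Irx, Lhx, Nkx and related families and 0 of 39 Hox genes hosted a region. None of the 1106 olfactory receptor and 320 vomeronasal receptor genes did, and 7 and 0 of them were the nearest protein-coding gene to a distal region within 200 kb. The rule drops regions within 5 kb of a start, so a gene shorter than that cannot be a host. The 1106 olfactory receptor genes spanned 1.92 Mb in all, the 39 Hox genes 0.345 Mb and the 34 other homeobox genes 0.317 Mb. A count of 0 hosts among such short genes was thus largely set by the rule. With genes nearest to a distal region within 200 kb counted too, the shares of these families were higher. They were 11 of 34 of the Irx, Lhx, Nkx and related genes (32.4%), 11 of 42 Fox genes (26.2%) and 4 of 17 Sox genes (23.5%). For Hox genes it was 1 of 39 (2.56%), and for all protein-coding genes 11.1%. All the families of this paragraph were described after their values were seen, and the percentages describe them only.

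A short list of pregranulosa pathway genes, chosen with earlier results of these data known, had distal H3K27me3 nearby more often than protein-coding genes at large. Of 19 autosomal genes of that pathway, 10 (52.6%) had a distal region in their body or were the nearest protein-coding gene to one within 200 kb, against 11.1% of all protein-coding genes. In the study's longer list of pregranulosa-specific genes, described further on, 156 of 1072 genes (14.6%) had one by the same measure. Other families also exceeded 11.1%, among them calcium channel (46.2%), glutamate receptor (41.4%), potassium channel (38.5%), collagen (31.1%) and Fox genes (26.2%). Zfp (8.03%) and Hox genes (2.56%) lay below it. An excess over 11.1% was thus not particular to the pathway lists given here and below. Of the 20 regions of the 10 pregranulosa pathway genes, 12 (60%) were present in Sertoli cells, 9 (45%) in XY progenitors, 3 (15%) in pregranulosa cells and 0 in XX progenitors. Over all 3382 regions assigned to a gene in this way the shares were 62.4%, 25%, 37.9% and 8.10%. The share in Sertoli cells was thus near that of all genes, the share in XY progenitors was above it and the share in pregranulosa cells was below it. Of the 9 regions in XY progenitors, 5 were in that list alone, and most of these 5 were single windows of 5001 bp. The XY progenitor list rests on the fewest tags. Foxl2, the transcription factor of granulosa identity, had a region of 8791 bp at 15.8 kb from its start in Sertoli cells alone. Near Wnt4, a ligand that promotes ovarian development, a region at 74.2 kb was covered over 7862 bp in XY progenitors and 7701 bp in Sertoli cells and had a GC content of 54.4%. Lef1, a nuclear effector of Wnt signalling, had a window of 5001 bp inside its body, 32.3 kb from the start, in Sertoli cells alone, and Axin2, a feedback inhibitor of Wnt signalling, had a region at 50.2 kb with 5001 bp in XY progenitors and 9263 bp in Sertoli cells.

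Runx1, a transcription factor of granulosa cells, had 3 regions inside its body, of 19709 and 5001 bp in Sertoli cells alone and of 5001 bp in XY progenitors alone. Outside the body at 14.2 kb it had one of 16888 bp in pregranulosa cells alone, and at 38.2 kb one of 5001 bp in Sertoli cells alone. The homeobox gene Irx5 had 4 regions between 56.7 and 122 kb, 3 in Sertoli cells alone and 1 in XY progenitors alone, and Irx3 had 2, at 41.6 kb in XY progenitors alone and at 135 kb in XY progenitors (12538 bp) and Sertoli cells (13287 bp). Msx1 had 1 region at 40.8 kb in Sertoli cells alone. Bmp2, a ligand of the ovarian pathway, had 2 regions in XY progenitors alone, at 43.4 and 173 kb. Fzd1, a Wnt receptor gene, differed from the others, with regions at 121 kb in pregranulosa cells alone and at 161 kb in XY progenitors and pregranulosa cells.

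Of 22 autosomal genes of the Sertoli pathway, 6 (27.3%, against 11.1% of all protein-coding genes) had a distal region assigned. In the study's longer list of Sertoli-specific genes 168 of 1327 (12.7%) had one. Fgfr2 accounted for 15 of the 29 regions of the 6 genes. Without it 14 regions remained, 9 (64.3%) present in Sertoli cells and 8 (57.1%) in pregranulosa cells, against 62.4% and 37.9% of all regions assigned to a gene. Fgf9, the growth factor that maintains Sox9, had 2 regions at 93.4 and 125 kb, both in pregranulosa cells alone (9183 and 5001 bp). Inhbb, an activin and inhibin subunit gene, had a region at 52.7 kb in pregranulosa cells alone and one at 95.6 kb in Sertoli cells alone. Cyp26b1 had 2 regions of 11861 and 10481 bp at 32.8 and 73.7 kb in Sertoli cells alone besides the one in XY progenitors, and Etv5 had 2 in both E13.5 lists. Sox9 itself had 5, of which those downstream of its start lay at 121 kb in both E13.5 lists, at 164 kb in Sertoli cells alone and at 171 kb in both E13.5 lists and XY progenitors.

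The intergenic interval upstream of Sox9, 1705 kb from Kcnj2 (chr11:110938136-112643537), contains distant testis enhancers and is known for rearrangements that alter sexual development. It held 16 H3K27me3 regions, of which 7 were distal regions without H3K4me3, or 4.10 per Mb of the interval. Chromosome 11 as a whole held 4.03 per Mb of sequence that met the rule and 2.07 per Mb of all its sequence. Of the 7, 5 were present in pregranulosa cells, 1 in Sertoli cells, 1 in XX progenitors and 0 in XY progenitors, each in that list alone. The pregranulosa regions lay 17.4, 940, 955, 1469 and 1515 kb upstream of Sox9, with widths of 6367, 8782, 5001, 5001 and 11197 bp. The Sertoli region (5001 bp) lay 145 kb upstream and the XX progenitor region (6322 bp) 1215 kb upstream, next to a region of 25562 bp at 1222 kb that was in all 4 lists and overlapped H3K4me3. The same interval held 13, 23, 27 and 22 H3K4me3 regions in XY progenitors, XX progenitors, Sertoli cells and pregranulosa cells.

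**Figure D4:**
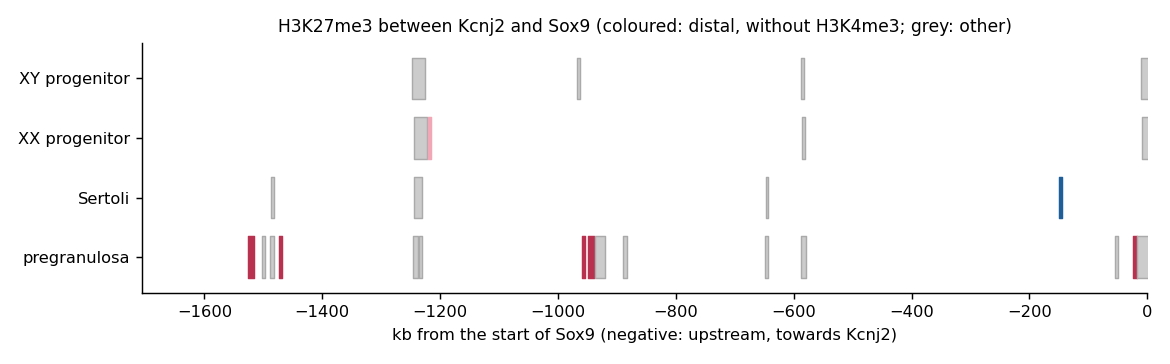
H3K27me3 in each list along the 1705 kb between Kcnj2 and Sox9, in kb from the start of Sox9, with distal regions without H3K4me3 coloured and other regions grey. Of the 7 coloured bars 5 are in the pregranulosa row, the nearest 17.4 kb upstream of Sox9, and 1 each is in the Sertoli and XX progenitor rows.

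Among 72 genes of Wnt signalling, 20 (27.8%, against 11.1% of all protein-coding genes) had a distal region assigned. Of their 33 regions, 25 (75.8%) were in Sertoli cells, 12 (36.4%) in pregranulosa cells, 5 in XY progenitors and 1 in XX progenitors. Tcf7l2 alone accounted for 9 of the 33, and Wnt4, Axin2 and Fzd1 were counted among the pregranulosa pathway genes too. Over all regions assigned to a gene the Sertoli and pregranulosa shares were 62.4% and 37.9%. Tcf7l2, a nuclear effector of the pathway, had 9 regions outside its body, 5 in Sertoli cells alone, 2 in pregranulosa cells alone and 2 in both. Among ligand genes, Wnt3a had a region of 22292 bp reaching into its body, covered throughout in Sertoli cells and over 7778 bp in pregranulosa cells, Wnt5a had 2 in Sertoli cells alone (at 9.63 and 189 kb) and 1 in pregranulosa cells alone, and Wnt7a had 1 in Sertoli cells alone inside its body and 1 at 59.0 kb that was also in XX progenitors. Among receptor genes, Fzd5 had a region at 7.65 kb in both E13.5 lists and one at 84.7 kb in pregranulosa cells alone, and Lgr6 had one inside its body in both. Ctnnb1, which encodes β-catenin, had 1 at 98.8 kb in Sertoli cells alone (9548 bp).

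Of 23 genes of the early gonad, 6 (26.1%, against 11.1% of all protein-coding genes) had a distal region assigned, each region in a single list. Tcf21 had 2 in pregranulosa cells (6257 and 48029 bp). Emx2, a homeobox gene needed to form the gonad, had 2 of 5001 bp in Sertoli cells at 97.8 and 105 kb, Igf1r 1 of 11011 bp at 20.8 kb and Gata6 1 of 7679 bp at 176 kb, also in Sertoli cells. Gata4 had 1 of 5001 bp in XY progenitors alone, at 36.4 kb. Of 31 Polycomb genes, 5 (16.1%, against 11.1%) had a distal region assigned, 12 regions in all, with 10 (83.3%) in Sertoli cells and 2 (16.7%) in pregranulosa cells, against 62.4% and 37.9% of all regions assigned to a gene. Jarid2, a subunit of Polycomb repressive complex 2, had 5 between 22.8 and 193 kb, 3 in Sertoli cells alone, 1 in pregranulosa cells alone and 1 in both. Cbx7, a CBX subunit gene, had 2 in Sertoli cells alone, 1 of them inside its body, as did Scmh1 outside its body. Rybp, a subunit of variant Polycomb repressive complex 1, had 1 in Sertoli cells alone and 1 in both progenitor lists, and Kdm6b, an H3K27 demethylase gene, had 1 at 19.8 kb in Sertoli cells alone.

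Genes specific to Sertoli cells were more often the nearest genes of pregranulosa-only than of Sertoli-only regions. The study's lists of genes whose expression is specific to Sertoli cells and to pregranulosa cells, which come from expression measured elsewhere and not from these marks, held 1327 and 1072 protein-coding genes on chromosomes 1 to 19. A Sertoli-specific gene was the nearest protein-coding gene for 113 of 959 pregranulosa-only regions (11.8%, 9.81 to 14.0) and for 98 of 1566 Sertoli-only regions (6.26%, 5.11 to 7.57), against 7.33% of the windows without H3K27me3. A pregranulosa-specific gene was the nearest for 67 pregranulosa-only regions (6.99%, 5.46 to 8.79) and for 144 Sertoli-only regions (9.20%, 7.81 to 10.7), against 8.91% of the windows. The share of Sertoli-specific genes near pregranulosa-only regions was thus above both, and the share of pregranulosa-specific genes near Sertoli-only regions did not differ from that of the windows beyond its interval. The 113 pregranulosa-only and 98 Sertoli-only regions nearest to Sertoli-specific genes belonged to 70 genes each, and the 67 and 144 nearest to pregranulosa-specific genes to 49 and 95 genes; regions near the same gene are not independent. With lists of equal length the 4 shares, in the same order, were 12.2%, 6.30%, 5.07% and 8.66%.

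Distance from starts moved with these classes. At 5 to 20 kb a Sertoli-specific gene was nearest for 13.3% (8.79 to 19) of 188 pregranulosa-only and 3.96% (2.61 to 5.75) of 656 Sertoli-only regions, against 7.34% of windows. At 20 to 50 kb the shares were 9.40% (5.99 to 13.9) and 6.05% (4.06 to 8.62), at 50 to 100 kb 12.9% (8.86 to 17.9) and 10.9% (7.36 to 15.4), and beyond 100 kb 11.8% (8.43 to 16) and 8.42% (4.89 to 13.3). The pregranulosa-only share was the higher in each of the 4 ranges, but the intervals overlapped in all except the nearest. For pregranulosa-specific genes the shares at 5 to 20 kb were 6.91% of pregranulosa-only and 6.86% of Sertoli-only regions. Farther out the Sertoli-only share was the higher, at 9.07% (6.62 to 12.1) against 4.70% (2.37 to 8.26), 12.5% (8.67 to 17.1) against 6.87% (3.98 to 10.9) and 13.2% (8.70 to 18.8) against 8.88% (5.93 to 12.7) in the same 3 ranges, with overlapping intervals in each.

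**Figure D5:**
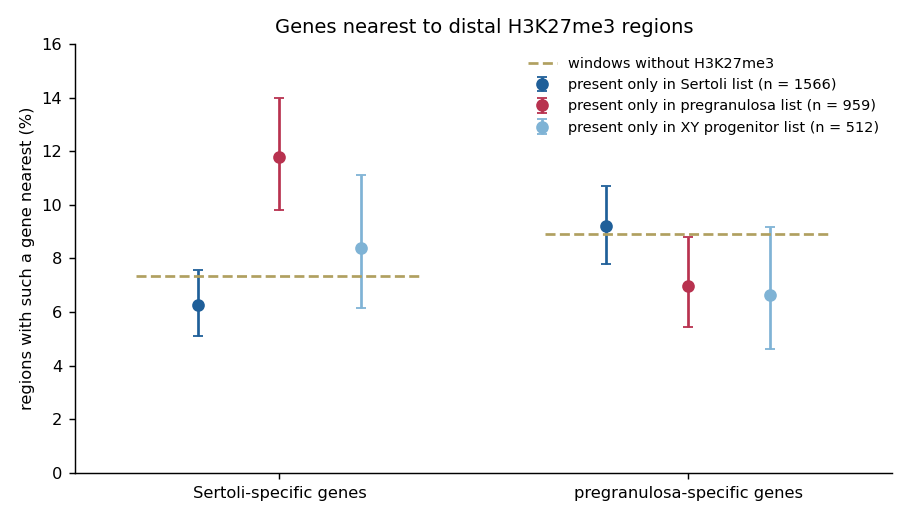
Share (%) of distal regions present in a single list whose nearest protein-coding gene is Sertoli-specific (left) or pregranulosa-specific (right), with exact 95% intervals; dashed lines give the share among windows without H3K27me3. The pregranulosa-only regions (11.8%) lie above the line of 7.33% on the left, and the Sertoli-only regions (9.20%) lie at the line of 8.91% on the right.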

How the data were processed

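Reads had been trimmed with Trim Galore and mapped to mm9 with Bowtie by the authors, who used HOMER findPeaks in histone style (window 5000 bp for H3K27me3, 1000 bp for H3K4me3, no clonal filter, 4-fold over the H3 input and the surroundings), as the methods and the list headers give it; the 3 H3K27me3 headers name pooled replicates, although the methods describe calls per replicate. The deposited lists hold peak positions and, where they have a score column, the value 1 throughout, so no peak height was used. The deposited pregranulosa lists have no header, so their exact peak calling settings are unknown. From these positions, peaks that overlapped were joined, and distances, gene overlap and base composition were computed on mm9 with the GENCODE M1 annotation (82144 transcript starts) in Python 3.11.15 with NumPy 2.4.6, pandas 2.3.3 and SciPy 1.17.1. The selection was checked with bedtools 2.31.1, which returned the same 3914 regions, and tested on simulated lists. A list was present from 1 bp of overlap. Each condition had 2 replicates, but the lists analysed here pool them, so no test was run. The regions and gene lists were chosen with earlier results of these data known. Named were the 3 widest regions of 9 combinations of lists with at most 5% unsequenced bases, the 10 genes with the most bases and the most regions, genes of 5 pathway lists (at most 10 each, within 200 kb), and the interval from Kcnj2 to Sox9. One gene that this rule names is not reported here. The study's Sertoli-specific and pregranulosa-specific genes were used as names only. The alternatives were other limits on distance, H3K4me3 clearance, width, overlap, joining and list length; the comparisons of base composition and nearest genes under them were added after seeing the data.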

Additional observations from a re-analysis of the deposited data

How the results depend on the processing

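The selection and the E13.5 comparison depended most on list length. Of 64 values, 8 results under 8 alternatives, 45 stayed within their counting interval or within 1.5 times the count and 19 moved. With the widest 75% of each list, 2223 regions remained, 2.88% of them in all 4 lists, with 27.7% in the pregranulosa and not the Sertoli list and a median width of 8083 bp. With lists of equal length there were 1940, 76.1% of them in 1 list, 30.3% in the Sertoli and not the pregranulosa list and 31.0% the reverse, with a median width of 8760 bp and GC content of 45%. With regions within 5 kb of each other joined, these values were 79.6%, 40%, 27.9%, 6316 bp and 45.2%. With no H3K4me3 within 5 kb they were 41.2% and 27.5% for the 2 sides and 45.3% for GC content, and with a start distance of 10 kb the pregranulosa side was 27.9%. The Sertoli side exceeded the pregranulosa side except with lists of equal length. In all 8 alternatives the median GC content of Sertoli-only regions (47.1 to 47.6%) exceeded that of pregranulosa-only regions (42.1 to 42.7%). No paired analysis was possible because the files analysed here hold 1 list per mark and population, pooled over both replicates, and no result comes from a test. The pregranulosa depth is unknown, and the XY progenitor list rests on the fewest tags, so absence from a list is not absence of the mark.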

Other observations

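Chromosome X was left out of the comparisons, since XY and XX cells carry different numbers of it. By the same rule it held 747 distal regions without H3K4me3 among 1490 H3K27me3 regions. Of the 747, 726 were present in XX progenitors, 194 in pregranulosa cells, 6 in XY progenitors and 0 in Sertoli cells. In these regions the mark covered 10.3 Mb in XX progenitors, 2.79 Mb in pregranulosa cells and 0.0344 Mb in XY progenitors. Of all 1490 regions of chromosome X, 1454 were present in XX progenitors, 700 in pregranulosa cells, 125 in XY progenitors and 114 in Sertoli cells.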
